A study of Mus musculus with 6 samples.

Results

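The Gata genes encode 6 zinc finger transcription factors, and Zfpm1 and Zfpm2 encode the Friend of Gata proteins FOG-1 and FOG-2, which bind them. These 8 genes were taken by name from 22180 genes that had a probe with a single gene symbol, and all 8 were measured. Where a gene had several such probes, the one with the highest mean over the 6 arrays stood for it. Expression was compared between YFP-positive and YFP-negative LSK cells of mouse bone marrow, with 3 samples of each. LSK cells are sorted as lineage-negative and positive for Sca-1 and Kit, which enriches blood stem cells and their multipotent progeny. All mice were on a C57Bl6 background and carried a Cre fused to the tamoxifen-sensitive ERT2 domain under the promoter of Cdh5, together with a YFP reporter at Rosa26. The animals that gave both populations received tamoxifen on postnatal days 1, 2 and 3, and marrow was taken at postnatal day 27, 26 days after the first dose. YFP therefore marks cells that had Cdh5-driven Cre activity after birth, and their descendants. Cre recombination is rarely complete, so YFP-negative cells are unmarked cells of the same kind of mouse and not cells from Cre-free mice. Whether each sample came from its own animal is not stated in the labels, so the tests here weigh differences against a spread between samples that may be technical.

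Gata factors bind DNA at the letters GATA through their zinc fingers. Gata1, Gata2 and Gata3 are the members known from blood. Gata2 maintains stem and early progenitor cells, and Gata1 replaces it as red cells form. Gata1 also acts in platelet and mast cell precursors, and Gata3 directs T cells and innate lymphoid cells. Gata4, Gata5 and Gata6 are known from heart, gut and other mesoderm and endoderm. In vessels, Gata2 is a general endothelial factor, and Gata4 directs the sinusoidal endothelium of the liver. FOG-1 works with Gata1 in red cell and platelet precursors, and FOG-2 works with Gata4, Gata5 and Gata6 in heart, gonad and diaphragm.

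The 6 arrays gave log2 values with medians between 3.62 and 3.68 over 41345 probes. No detection calls were used. To show the low end of each array, the 1105 odorant receptor genes, a class used by neither blood nor endothelium, were taken as silent, and 95% of them lay below 4.02 to 4.23. Cdh5, the gene whose promoter drove Cre, measured 11.63, 11.84 and 11.29 in YFP-positive cells and 5.40, 4.55 and 3.71 in YFP-negative cells. Ptprc, which encodes the leukocyte protein CD45, measured 6.52, 6.95 and 9.52 in YFP-positive cells, against 9.33, 9.23 and 9.37 in YFP-negative cells. Kit, which defines the gate, measured 6.98, 6.56 and 7.06 in YFP-positive cells, against 7.57, 7.96 and 7.74 in YFP-negative cells. YFP-positive replicate 3 thus had a CD45 level like that of YFP-negative cells, and replicates 1 and 2 had lower ones. Kit was thus lower in all 3 YFP-positive samples, with a call that did not hold on 5 arrays, and Sca-1, the other gate protein, was not analysed here. Of 7 genes for proteins used in sorting or subdividing LSK cells, 4 fell, against 1 in the unmoderated model and 2 without YFP-positive replicate 2 or any 1 YFP-negative array. Besides Kit these were Cd34, a progenitor sialomucin, the receptor Flt3 and the surface protein Cd48, with differences of -2.29, -4.17 and -3.76. Cd34 and Flt3 passed whichever array was dropped, and Cd48 did not pass without YFP-positive replicate 2 or any 1 of the YFP-negative arrays (adjusted p up to 0.0867). Cd34, Flt3 and Cd48 vary among LSK cells and do not define the gate. In such bulk samples, fewer cells of a type and less RNA per cell cannot be told apart.

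Of the 8 genes, 1 was higher in YFP-positive cells past the test (Zfpm2), 0 were lower and 7 stayed short of it. The test was limma on the log2 values, with p-values adjusted by Benjamini-Hochberg over the 22180 genes and a threshold of 0.05, and 0 of the other 7 had an unadjusted p under 0.05, as 17.2% of all genes had. Over all genes, 4.84% passed in either direction, 2.88% as higher and 1.96% as lower, so with 8 genes a count of 1 cannot be set apart from the background. The arrays of the 2 populations did not overlap for 1 of the 8 genes, against 22.7% of all genes. The median difference over the 8 genes was -0.03 on the log2 scale, against -0.01 over all genes. For 6 of the 8 genes the whole 95% interval fell inside -1 to 1, as it did for 72.7% of all genes. The exceptions were Gata2 and Zfpm2.

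**Figure D1:**
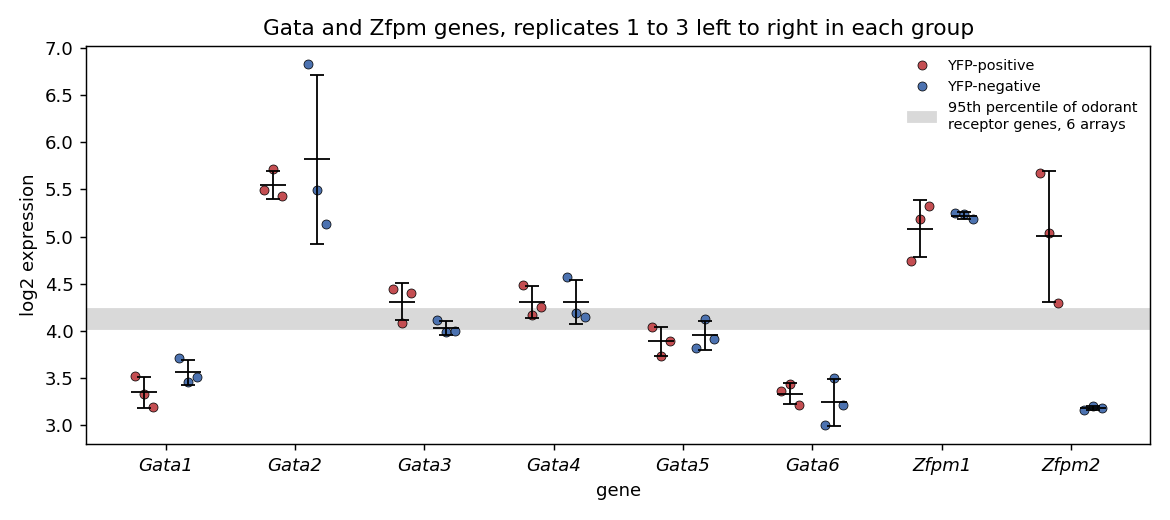
Log2 expression of the 8 genes (vertical axis) on each array, with YFP-positive arrays in red to the left of YFP-negative arrays in blue. Black bars give mean and SD of 3 arrays, and the grey band spans the 95th percentile of odorant receptor genes on the 6 arrays (4.02 to 4.23). The 3 YFP-positive points of Zfpm2 lie above its 3 YFP-negative points, and the groups overlap for the other 7 genes.

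Zfpm2 encodes FOG-2, a multi-zinc-finger protein that binds Gata factors and can turn them from activators into repressors. The arrays gave 5.68, 5.03 and 4.29 for YFP-positive replicates 1 to 3, against 3.16, 3.21 and 3.18 in YFP-negative cells. The YFP-positive arrays were spread over 1.39 on the log2 scale and the YFP-negative arrays over 0.04, and the groups did not overlap. Groups did not overlap with YFP-positive cells higher for 10.8% of all genes. Zfpm2 averaged 5.002 ± 0.69 in YFP-positive cells and 3.18 ± 0.02 in YFP-negative cells (SD, n = 3 each). The difference was 1.82 ± 0.34 (SE), or 3.53-fold with a 95% interval of 2.00-fold to 6.22-fold (limma, adjusted p = 0.0394). Differences of this size or larger were found for 422 of 22180 genes (1.9%). All 3 YFP-negative values lay below the odorant receptor level, so they cannot be told from background and the fold may understate the change. The call rested on each of 5 arrays. Without YFP-positive replicate 1 or 2, the adjusted p was 0.0551 or 0.114, and without YFP-negative replicate 1, 2 or 3 it was 0.127, 0.124 or 0.106. Without YFP-positive replicate 3, the array with the lowest YFP-positive level, the difference was 2.17 (adjusted p = 0.00824).

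Marker lists also differed between the YFP-positive arrays. The 22 endothelial genes had a median of 3.06, 3.23 and 2.22 above the YFP-negative mean in YFP-positive replicates 1, 2 and 3, and Zfpm2 stood 2.49, 1.85 and 1.11 above its own. Of these 22 genes, 14 rose and 0 fell, and 7 rose in the unmoderated model. The smallest p-values were those of Kdr, the receptor VEGFR2, and Vcam1, an adhesion molecule of marrow sinusoids (differences 6.67 and 6.07, adjusted p = 4.31e-05 for each). The median level of the 22 endothelial genes was 6.80 to 8.07 on the YFP-positive arrays, against 4.12 to 4.17 on the YFP-negative arrays. The 18 leukocyte genes stood at -2.19, -2.05 and 0.13 in the same 3 YFP-positive samples, with 0 higher and 2 lower past the test. Vav1, a signalling protein of blood cells, and Inpp5d, a lipid phosphatase of blood cells, were these 2. Without YFP-positive replicate 3, 10 of the 18 fell, and without YFP-positive replicate 1 or any 1 YFP-negative array 1 did, as in the unmoderated model. Vav1 passed whichever array was dropped, while Inpp5d passed on 5 arrays just without YFP-positive replicate 2 (adjusted p up to 0.0896). Zfpm2 is also known from mesenchyme, for which 14 stromal genes were listed. Their median deviation was 0.05, 0.33 and 0.07 in the YFP-positive samples, and 0 of 14 passed in limma or in the unmoderated model. In limma 6 of the 14 had an unadjusted p below 0.05, against 17.2% of all genes. The groups did not overlap with YFP-positive cells higher for 5, against 10.8% of all genes, and lower for 1, against 11.9%. On 5 arrays 1 gene rose without YFP-positive replicate 1 and 1 without YFP-positive replicate 3, and 0 in the other such fits. Adipoq, the fat cell hormone adiponectin, had the smallest p of the 14 on all 6 arrays (difference 0.93, adjusted p = 0.0658). Lepr, the leptin receptor of marrow stroma, measured 3.72, 6.02 and 4.62 in YFP-positive cells, against 3.00, 2.84 and 2.90 in YFP-negative cells, without passing the test (adjusted p = 0.143). Col1a1, a collagen of fibroblasts and bone cells, measured 4.58, 4.60 and 4.84 in YFP-positive cells and 4.61, 4.78 and 4.72 in YFP-negative cells. The part of these cell types in the level of Zfpm2 was not tested.

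**Figure D2:**
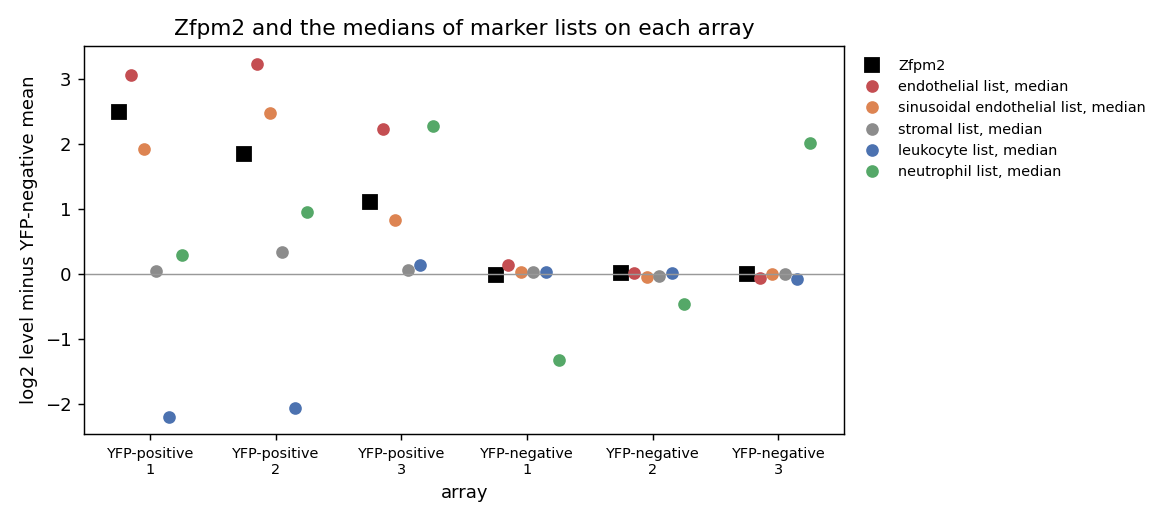
Level minus the YFP-negative mean (log2, vertical axis) on each of the 6 arrays, for Zfpm2 (black squares) and as the median over the genes of 5 marker lists (circles). Zfpm2, the endothelial list and the sinusoidal list are above 0 on all 3 YFP-positive arrays and lowest there on replicate 3, while the leukocyte list is near -2 on replicates 1 and 2 and at 0.13 on replicate 3.

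The 3 genes whose pattern over the 6 arrays was most like that of Zfpm2, among 861 genes of at least its spread, were Plscr2, a member of the phospholipid scramblase family (r = 0.998), Col4a2, a collagen chain of basement membranes (r = 0.998), and Vsig2, an immunoglobulin-domain membrane protein (r = 0.997). These are descriptions over 6 arrays in which the split into YFP-positive and YFP-negative samples is shared by all genes that differ. Col4a2 measured 7.21, 6.45 and 5.86 in YFP-positive cells, against 4.40, 4.49 and 4.45 in YFP-negative cells. As with Zfpm2, YFP-positive replicate 1 was highest and replicate 3 the lowest of the YFP-positive samples, and the YFP-negative samples were close together.

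Zfpm1 encodes FOG-1, needed with Gata1 for red cell and platelet formation. It measured 4.74, 5.19 and 5.32 in YFP-positive cells, against 5.25, 5.24 and 5.18 in YFP-negative cells. YFP-positive replicate 1 was lowest, the other 5 arrays were close together, and the groups overlapped. The difference was -0.14 (95% interval -0.55 to 0.28, adjusted p = 0.776), and it was 0.033 without YFP-positive replicate 1. The nearest patterns over the 6 arrays, among 10254 genes, were those of Arfgef1, an exchange factor of vesicle traffic (r = 0.992), Myo9b, an unconventional myosin (r = 0.987), and Mpv17l2, a mitochondrial protein (r = 0.977), none of which passed the test. All 6 arrays were above the odorant receptor level.

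Gata2, the stem cell and endothelial member, is transcribed from a pair of first exons. The distal one is known from blood progenitors and neural tissue, and the proximal one from most cells that express Gata2. Gata2 had 1 probe, and its value is not assigned to either start here. The sequences around both starts are shown because a change in either could bear on the level of Gata2. They are RefSeq entries of build GRCm38.p6, on the plus strand, from 250 bases before to 50 bases after the start, at chr6:88193641-88193940 and chr6:88198414-88198713.
Gata2 distal start: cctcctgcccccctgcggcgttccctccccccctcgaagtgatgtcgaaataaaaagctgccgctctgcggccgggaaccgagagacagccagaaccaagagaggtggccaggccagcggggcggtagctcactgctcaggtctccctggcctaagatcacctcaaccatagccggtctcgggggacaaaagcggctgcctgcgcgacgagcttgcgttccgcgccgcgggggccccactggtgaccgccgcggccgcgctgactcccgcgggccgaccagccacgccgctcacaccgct
Gata2 proximal start: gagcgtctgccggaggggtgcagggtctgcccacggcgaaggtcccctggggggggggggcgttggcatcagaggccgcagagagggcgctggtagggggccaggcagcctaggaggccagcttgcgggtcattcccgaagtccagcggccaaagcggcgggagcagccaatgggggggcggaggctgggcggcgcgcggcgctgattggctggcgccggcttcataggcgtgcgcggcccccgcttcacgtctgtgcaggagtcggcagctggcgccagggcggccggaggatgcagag
The consensus bound by Gata factors was searched in both as AGATAA and, with the last letter changed, as AGATAG, and in the form that starts with T as TGATAA and, changed likewise, as TGATAG, on either strand. Neither window held one, and 25.7% of the 20611 promoters of measured genes did.

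Gata2 measured 5.49, 5.71 and 5.43 in YFP-positive cells, against 6.83, 5.50 and 5.13 in YFP-negative cells. Its level was above the odorant receptor level on all 6 arrays. The YFP-positive samples were close together, and YFP-negative replicate 1 stood far above the other 5 samples, so the groups overlapped. Gata2 averaged 5.54 ± 0.15 in YFP-positive cells and 5.82 ± 0.89 in YFP-negative cells (SD, n = 3 each). The difference was -0.27, with a 95% interval of -1.33 to 0.78, the widest of the 7 that did not pass (adjusted p = 0.834). Without YFP-negative replicate 1 the difference turned to 0.23 (adjusted p = 0.66).

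YFP-negative replicate 1 was the highest of the YFP-negative samples for 5 of the 8 genes, against 33.1% of all genes. This count over 8 genes was not tested. Gata1 lay below the odorant receptor level there, and the lead of Zfpm1 was small (5.247, against 5.238 in YFP-negative replicate 2). Some genes of red cell, platelet and mast cell precursors were high on YFP-negative replicate 1, and they were picked after their values were seen. Gfi1b, a repressor of red cell and platelet precursors that Gata2 can bind, measured 7.99 in YFP-negative replicate 1, against 6.33 and 6.35 in replicates 2 and 3. Xk, a red cell membrane protein, measured 5.87 there, against 4.56 and 4.88. Cpa3, a mast cell protease, measured 6.30 there, against 5.49 and 4.42. The lists these genes come from were not set apart on YFP-negative replicate 1. The highest YFP-negative level was on that array for 7 of 19 measured erythroid genes and 4 of 15 megakaryocyte genes. It was there for 7 of 18 mast cell, basophil and eosinophil genes. Other listed genes were lowest there, such as Gp9 (5.18, against 7.07 and 6.22) and Treml1 (4.14, against 5.04 and 5.10) of the megakaryocyte list. The 3 genes nearest to Gata2 in pattern were Zbtb21, a zinc finger repressor (r = 0.984), the kinase Dclk2 (r = 0.980) and Aven, an inhibitor of cell death (r = 0.977), among 3030 genes, all with their highest value on that array.

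Gata1, the red cell and platelet member, measured 3.52, 3.33 and 3.19 in YFP-positive cells, against 3.71, 3.46 and 3.51 in YFP-negative cells. All 6 values lay below the odorant receptor level and the groups overlapped. The difference was -0.21 (95% interval -0.54 to 0.12, adjusted p = 0.522). At this signal a Gata1 transcript could not be told from background in either population.

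Gata3, the T cell and innate lymphoid member that is also expressed in stem cells, measured 4.44, 4.08 and 4.40 in YFP-positive cells, against 4.11, 3.99 and 3.99 in YFP-negative cells. YFP-positive replicate 2 lay below YFP-negative replicate 1, so the groups overlapped. Its level was above the odorant receptor level on all 3 YFP-positive arrays and on 1 of the 3 YFP-negative arrays. On YFP-positive replicate 2 the margin was small (4.084 against 4.083). The difference was 0.28 (95% interval -0.05 to 0.60, adjusted p = 0.375), the second largest above 0 among the 8 genes. Gata3 had a second probe, which measured 4.24, 4.10 and 4.40 in YFP-positive cells, against 4.06, 4.05 and 4.01 in YFP-negative cells, a difference of 0.21. On that probe the groups did not overlap, with YFP-negative values of 4.01 to 4.06 that were near the odorant receptor level. Another Gata3 probe, which carried 3 gene symbols and so did not enter the choice, had a difference of -0.04. Of the 3 genes closest to Gata3 in pattern, Nrarp, an inhibitor of Notch signalling, had r = 0.995 over the 6 arrays, Slc52a3, a riboflavin transporter, had r = 0.997, and Arhgap42 had r = 0.993. None of these 3 passed the test.

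Gata4, the member that directs liver sinusoidal endothelium, measured 4.49, 4.16 and 4.25 in YFP-positive cells, against 4.57, 4.19 and 4.15 in YFP-negative cells. The values lay just above the odorant receptor level on all 6 arrays. The difference was -0.0021 (95% interval -0.40 to 0.39, adjusted p = 0.998). It was 0.067, 0.023 and 0.13 without YFP-positive replicate 2, YFP-positive replicate 3 and YFP-negative replicate 1. Replicate 1 was the highest in both populations. The closest patterns over the 6 arrays were those of Kifc2, a kinesin (r = 0.990), Tssk6, a testis kinase (r = 0.986), and Xist, the RNA that silences an X chromosome (r = 0.984).

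Gata5, known from heart and gut, measured 4.04, 3.74 and 3.89 in YFP-positive cells and 3.82, 4.12 and 3.92 in YFP-negative cells, a difference of -0.06 (95% interval -0.40 to 0.27). Gata6, known from heart, endoderm and peritoneal macrophages, measured 3.36, 3.43 and 3.21 in YFP-positive cells and 3.00, 3.50 and 3.21 in YFP-negative cells, a difference of 0.09 (95% interval -0.29 to 0.48). Both genes had overlapping groups. Gata6 lay below the odorant receptor level on all 6 arrays, and Gata5 passed it on 1 YFP-negative array. Neither could be told from background on most arrays, so no statement on their presence can be made at this signal. The difference of Gata5 was 0.014 without YFP-positive replicate 2 and 0.023 without YFP-negative replicate 2, and that of Gata6 was -0.024 without YFP-negative replicate 1.

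**Figure D3:**
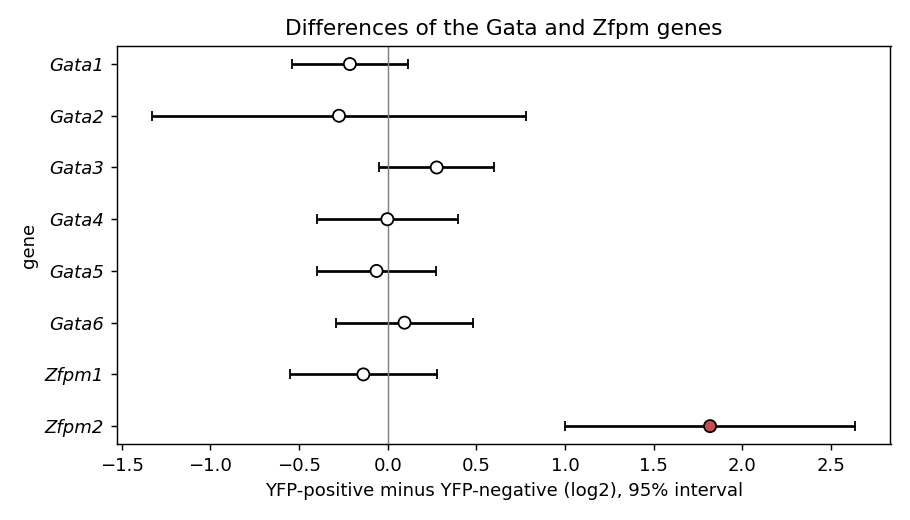
Difference YFP-positive minus YFP-negative (log2, horizontal axis) of the 8 genes with the 95% interval from limma. The filled point, Zfpm2 at 1.82, passed an adjusted p of 0.05. The intervals of the 7 open points include 0.

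Gata factors work in a complex with other DNA-binding proteins. Of 20 listed partner factors, 1 rose, 1 fell and 18 did not pass, and in the unmoderated model 1 rose and 0 fell (median difference -0.04). Ldb2, a LIM domain-binding protein related to the Ldb1 that bridges Gata1 and Tal1 in blood, measured 10.75, 10.39 and 9.79 in YFP-positive cells, against 3.42, 4.27 and 3.52 in YFP-negative cells. The groups were far apart, by 6.57 ± 0.33 (SE) on the log2 scale (adjusted p = 0.000395). Ldb1 itself measured 8.75, 8.09 and 8.84 in YFP-positive cells, against 8.22, 8.85 and 8.31 in YFP-negative cells, with overlapping groups (adjusted p = 0.91). Tal1, the basic helix-loop-helix partner, averaged 5.08 ± 0.25 in YFP-positive cells and 5.08 ± 0.22 in YFP-negative cells (SD, n = 3 each). Runx1 fell by 1.30 on the log2 scale, with 6.40 ± 0.13 in YFP-positive cells and 7.70 ± 0.44 in YFP-negative cells (adjusted p = 0.0359), and of the 6 fits on 5 arrays passed just the one without YFP-negative replicate 1 (adjusted p up to 0.108). Lmo2, the bridging protein of the complex, Lyl1, a relative of Tal1, and the factors Fli1 and Erg had differences of -0.45, -0.56, 0.24 and 0.57 and did not pass. Spi1, which opposes Gata1 in myeloid cells, measured 5.40, 4.83 and 8.14 in YFP-positive cells, against 7.05, 7.61 and 7.98 in YFP-negative cells. Its YFP-positive replicates 1 and 2 were low and replicate 3 was high, the split that the leukocyte list showed.

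FOG proteins recruit the NuRD deacetylase complex and the CtBP corepressors. Of 16 listed genes, those of these corepressors and the FOG-1 partner Tacc3, 0 rose, 1 fell and 15 did not pass. A difference below 0 was found for 13 of the 16, against 11373 of 22180 genes (median -0.19, against -0.01 over all genes). Rbbp7, a histone-binding subunit of NuRD, measured 7.39, 8.13 and 7.85 in YFP-positive cells, against 9.53, 9.61 and 9.51 in YFP-negative cells. The groups were separated, with a difference of -1.76 ± 0.20 (SE, adjusted p = 0.00832), and it passed whichever of the 6 arrays was dropped, but not in the unmoderated model, where 0 of the 16 passed. Hdac1 and Hdac2, the deacetylases of the complex, had differences of -0.75 and -0.61 and did not pass (adjusted p = 0.137 and 0.135). Tacc3, a centrosome protein that binds FOG-1, had -0.77 (adjusted p = 0.279). At an unadjusted p under 0.05 there were 4 of the 16, all lower, against 17.2% of all genes in either direction. Of 9 other genes with GATA-type zinc fingers, 3 of them on the corepressor list as Mta genes and 2 as Gatad2 genes, 0 passed in limma (0 with an unadjusted p below 0.05, and 0 passed in the unmoderated model). Rere, an arginine-glutamate repeat corepressor, had the smallest p of these (difference -0.32, adjusted p = 0.436), and Trps1, a Gata-like repressor, had a difference of 0.08.

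**Figure D4:**
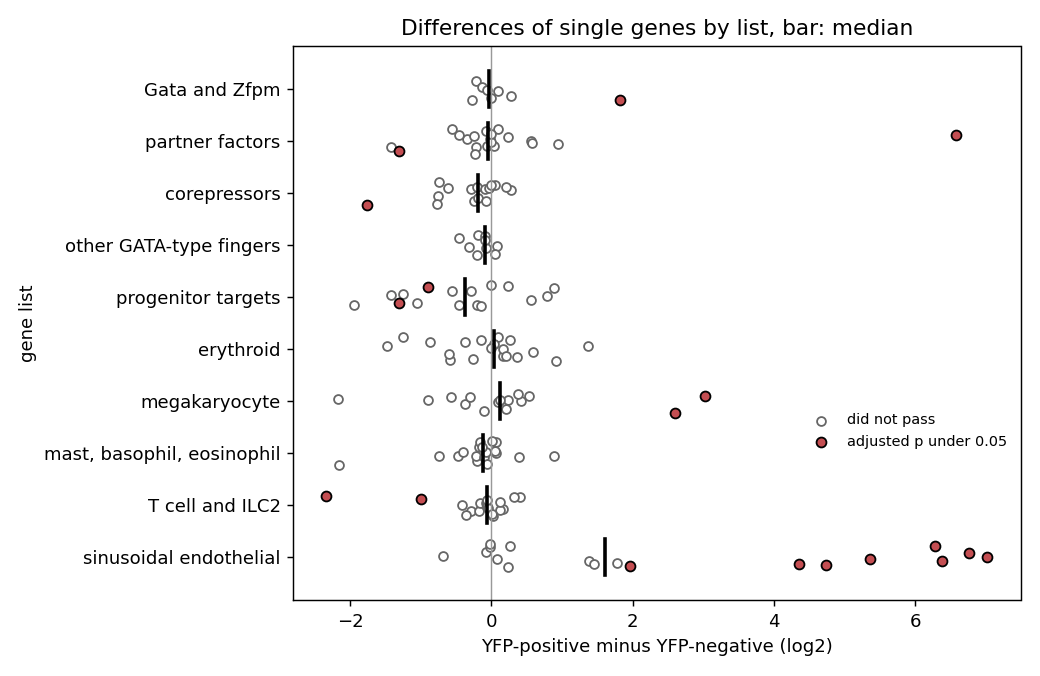
Difference YFP-positive minus YFP-negative (log2, horizontal axis) of each measured gene in 10 lists, 1 list per line. Filled points passed an adjusted p of 0.05 and black bars are list medians. The sinusoidal endothelial list has a median of 1.61. The other lists have medians from -0.37 (progenitor targets) to 0.12 (megakaryocyte), with at most 2 called genes each and 0 in some.

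Of 16 progenitor genes known to be bound or controlled by Gata2, 0 rose, 2 fell and 14 did not pass (median -0.37). The 2 were Runx1 and Kit, and 0 passed in the unmoderated model. Kit, the stem cell factor receptor, had a difference of -0.89 ± 0.18 (SE, adjusted p = 0.0496) and did not pass whichever of the 6 arrays was dropped (adjusted p up to 0.148). Mecom, a stem cell regulator, measured 4.22, 3.27 and 4.40 in YFP-positive cells, against 4.87, 5.10 and 5.07 in YFP-negative cells, with separate groups that did not pass the test (adjusted p = 0.139). Ikzf1, the lymphoid factor Ikaros, measured 4.21, 6.11 and 7.38 in YFP-positive cells, against 8.01, 8.18 and 7.36 in YFP-negative cells (adjusted p = 0.276). The same samples had leukocyte list medians of -2.19, -2.05 and 0.13. Ikzf1 is itself a gene of that list, and the part of the cell mixture was not tested.

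Of 19 measured erythroid genes, many of them targets of Gata1, 0 passed in limma (3 with an unadjusted p below 0.05, and 0 passed in the unmoderated model), with a median difference of 0.04. Epor, the erythropoietin receptor, measured 6.50, 5.55 and 6.41 in YFP-positive cells, against 4.91, 4.55 and 4.91 in YFP-negative cells. Its groups were separate and its difference of 1.37 did not pass (adjusted p = 0.0517). On 5 arrays it passed just without YFP-positive replicate 2 (adjusted p = 0.0157, and up to 0.16 in the other such fits). In limma with the replicate number as a block Epor passed (adjusted p = 0.0425), though the labels do not state such pairs. With genes above the median level only, 1 erythroid gene rose and 1 fell. Car2, also on the list, had separate groups in the other direction and did not pass (difference -1.47, adjusted p = 0.0616). Klf1, the red cell factor downstream of Gata1, averaged 3.87 ± 0.20 in YFP-positive cells and 3.83 ± 0.21 in YFP-negative cells (SD, n = 3 each), near the odorant receptor level. Of 15 megakaryocyte genes, 2 rose, 0 fell and 13 did not pass, and 0 passed in the unmoderated model. These 2 were Selp, P-selectin, and Mmrn1, multimerin 1, which endothelium also expresses, with differences of 3.02 and 2.60 (adjusted p = 0.00734 and 0.0478). Mmrn1 passed on 5 arrays just without YFP-positive replicate 3 (adjusted p up to 0.151), and the endothelial list rose beside both genes. Itga2b, the platelet integrin that Gata1 controls, measured 4.27, 4.08 and 4.44 in YFP-positive cells and 3.97, 4.13 and 4.09 in YFP-negative cells.

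Of 18 mast cell, basophil and eosinophil genes, 0 passed in limma (1 with an unadjusted p below 0.05, and 0 passed in the unmoderated model). Siglecf, an eosinophil receptor, had the smallest p (difference -0.47, adjusted p = 0.217). Prg2, the eosinophil major basic protein, measured 3.90, 3.62 and 10.46 in YFP-positive cells and 3.77, 5.04 and 9.54 in YFP-negative cells, high in replicate 3 of both populations. The neutrophil list was high in the same arrays, with medians of 2.28 and 2.02 above the YFP-negative mean in replicate 3 of YFP-positive and of YFP-negative cells. Of its 13 genes, 0 passed in limma (1 with an unadjusted p below 0.05, and 0 passed in the unmoderated model). Prtn3, a granule protease, had the smallest p (difference -0.61, adjusted p = 0.155). It was among the 2 genes of the list with a difference below 0, while 11 were above 0 (median difference 0.97). Of 18 T cell and innate lymphoid genes around Gata3, 0 rose, 2 fell and 16 did not pass, and 1 fell in the unmoderated model. Il7r, the interleukin 7 receptor, measured 3.09, 2.90 and 2.96 in YFP-positive cells, against 5.08, 5.71 and 5.14 in YFP-negative cells (difference -2.33 ± 0.19 SE, adjusted p = 0.0026). Thy1, a surface protein of T cells, fell by 0.99 on the log2 scale (adjusted p = 0.0292) and of the 6 fits on 5 arrays passed just the one without YFP-positive replicate 1 (adjusted p up to 0.106). The T cell receptor subunits Cd3e and Cd3g were below the odorant receptor level in all samples. Cd3d, a further subunit, measured 3.59, 3.55 and 4.93 in YFP-positive cells and 3.77, 3.68 and 5.70 in YFP-negative cells, above that level in replicate 3 of both populations. Of 12 genes of resident macrophages, some of which depend on Gata6, 0 passed in limma (0 with an unadjusted p below 0.05, and 0 passed in the unmoderated model), and C1qc, a complement chain, had the smallest p (difference 0.20, adjusted p = 0.472).

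Of 18 genes of liver sinusoidal endothelium, the cell type that Gata4 directs, 8 rose, 0 fell and 10 did not pass (6 rose in the unmoderated model), with a median difference of 1.61. Stab2, a scavenger receptor for hyaluronan, measured 10.88, 10.98 and 10.59 in YFP-positive cells, against 3.99, 3.71 and 3.69 in YFP-negative cells. Flt4, the receptor VEGFR3, and Mrc1, the mannose receptor, rose by 5.35 and 6.76 on the log2 scale (adjusted p = 5.75e-05 and 6.82e-05). Maf, a transcription factor of sinusoids, measured 10.22, 8.88 and 9.91 in YFP-positive cells, against 3.77, 3.49 and 2.90 in YFP-negative cells. The groups were far apart for Stab2 and Maf (adjusted p = 4.3e-05 for Stab2 and 0.000979 for Maf). Wnt2, Rspo3 and Clec4g, further genes of liver sinusoids, had differences of -0.08, 0.24 and -0.02, and their values lay below the odorant receptor level in every sample. Lyve1, a hyaluronan receptor, averaged 4.48 ± 0.06 in YFP-positive cells and 4.49 ± 0.12 in YFP-negative cells (SD, n = 3 each). In the same samples Gata4 had a difference of -0.0021, with a 95% interval of -0.40 to 0.39. Its values of 4.15 to 4.57 lay just above the odorant receptor level, so a change of Gata4 may not register at this signal.

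The Gata consensus was searched in the start windows of the listed genes that passed the test. Of 16 genes that rose and had a RefSeq window, 3 held it, and of 9 that fell, 3 did. Among 133 listed genes that did not pass, 59 did, and by window it was in 25.7% of the promoters of measured genes. The match was in Tek, Emcn and Mmrn1 among the genes that rose and in Vav1, Cd34 and Inpp5d among those that fell. Of the members, 5 had entries, with 6 windows, and Gata3 was the member with a match. Gata4, Gata6 and Zfpm2 had no entry, so no window of theirs was searched. The windows of Gata3 and, for each direction, of the 2 matched genes that differed most are shown, to set the match beside the values. Capitals mark the match, which in Emcn and Cd34 is on the other strand.
Gata3, chr2:9878551-9878850, minus strand: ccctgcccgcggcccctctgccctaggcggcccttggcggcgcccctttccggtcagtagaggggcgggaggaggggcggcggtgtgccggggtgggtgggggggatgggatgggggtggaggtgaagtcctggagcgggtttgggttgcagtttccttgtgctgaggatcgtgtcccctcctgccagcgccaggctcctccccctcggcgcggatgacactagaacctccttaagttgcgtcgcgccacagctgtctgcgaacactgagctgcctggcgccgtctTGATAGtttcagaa
Tek, chr4:94739039-94739338, plus strand: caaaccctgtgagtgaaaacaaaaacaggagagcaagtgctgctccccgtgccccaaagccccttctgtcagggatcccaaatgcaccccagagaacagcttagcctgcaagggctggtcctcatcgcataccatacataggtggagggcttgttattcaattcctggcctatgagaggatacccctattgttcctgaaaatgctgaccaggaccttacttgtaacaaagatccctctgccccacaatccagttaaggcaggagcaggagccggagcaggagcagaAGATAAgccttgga
Emcn, chr3:137340828-137341127, plus strand: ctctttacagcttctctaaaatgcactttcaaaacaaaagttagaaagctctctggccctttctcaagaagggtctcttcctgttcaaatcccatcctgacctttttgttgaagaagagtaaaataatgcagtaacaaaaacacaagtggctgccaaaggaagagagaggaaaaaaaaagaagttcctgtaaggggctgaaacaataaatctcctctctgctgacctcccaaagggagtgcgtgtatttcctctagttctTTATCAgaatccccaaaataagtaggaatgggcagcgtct
Vav1, chr17:57278850-57279149, plus strand: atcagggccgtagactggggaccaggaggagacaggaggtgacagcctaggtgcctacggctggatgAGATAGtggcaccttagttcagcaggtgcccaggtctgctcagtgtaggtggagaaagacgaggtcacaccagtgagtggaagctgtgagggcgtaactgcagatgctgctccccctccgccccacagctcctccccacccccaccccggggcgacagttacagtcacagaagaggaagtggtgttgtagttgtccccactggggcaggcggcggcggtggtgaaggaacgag
Cd34, chr1:194938571-194938870, plus strand: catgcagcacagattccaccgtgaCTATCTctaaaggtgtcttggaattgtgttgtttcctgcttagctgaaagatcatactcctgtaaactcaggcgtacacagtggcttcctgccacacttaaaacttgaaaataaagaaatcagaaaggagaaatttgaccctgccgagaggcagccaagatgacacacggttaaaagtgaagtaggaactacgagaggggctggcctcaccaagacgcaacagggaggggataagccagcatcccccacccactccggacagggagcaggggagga
Tek, the angiopoietin receptor of endothelium, rose by 5.39 ± 0.33 (SE) on the log2 scale in YFP-positive cells (adjusted p = 0.000865), and Emcn, the endothelial sialomucin endomucin, by 3.51 ± 0.61 (adjusted p = 0.032). Vav1 and Cd34, a sialomucin of progenitors and vessels, differed by -2.56 ± 0.20 and -2.29 ± 0.19 (adjusted p = 0.00219 and 0.00279). The match thus occurred beside genes of either direction, and a match is a run of letters and not evidence of binding.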

How the data were processed

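Per the labels' protocols, picogram amounts of RNA were amplified (Ovation Pico) and biotin-labelled. The authors deposited a table of log2 values for 41345 probes on 6 arrays. Its log2 scale is inferred from the range, 1.53 to 13.7. Partek is named in the submitters' processing notes without a version. How background was corrected and arrays normalized is not given in the sources used here. All 6 columns were used.

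Of 25335 annotated probes, 23521 had a single gene symbol, which gave 22180 genes, and 16010 probes were unnamed here. The files name no genome build, so coordinates are given only for RefSeq start windows. Differences were fitted with limma 3.58.1 in R 4.3.3 (lmFit, eBayes, two-sided, population as the only term). In simulated data with 200 changed genes, the fit recovered 33% of changes of 1 and 79% of changes of 2 on the log2 scale. Of its calls there, 5.88% were false. A gene that did not pass may thus still differ. The members and the 15 gene lists were chosen with earlier results of these data known. Listed genes were named as the up to 3 of smallest p in each direction past the threshold, or else the 1 of smallest p. All other listed genes in the text were named after their values were seen. Neighbours were the 3 genes of highest Pearson correlation with a spread at least that of the member, without predicted genes. Alternatives were another rule for probes, a filter on level, other scalings, other moderation, array weights, the replicate number as a block and leaving out each array. The number of arrays limits the precision.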

Additional observations from a re-analysis of the deposited data

How the results depend on the processing

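The difference of Zfpm2 was above 0 in all 15 alternative fits, from 1.48 to 2.17, and passed in 8 of them. It did not pass with the unmoderated model (adjusted p = 0.177), with the replicate number as a block, or in 5 of the 6 fits on 5 arrays. None of the other 7 genes passed in any fit. Gata1 stayed below 0 and Gata3 above 0 wherever they were fitted, while fits that left out an array gave -0.62 to 0.23 for Gata2, -0.10 to 0.13 for Gata4, -0.14 to 0.023 for Gata5, -0.024 to 0.23 for Gata6 and -0.26 to 0.033 for Zfpm1. With the filter on level, Gata1, Gata5 and Gata6 were not fitted. With the unmoderated model, 180 genes, 17 listed genes and 0 of the 8 members passed, against 1074, 35 and 1 in the reported fit. Leaving out an array gave 430 to 1185 genes, 26 to 48 listed genes and 0 to 1 members. Why these counts differ was not tested. The labels do not say that replicate numbers pair samples. The correlations of deviations between samples of the same number were 0.0985, 0.0806 and 0.167, each the highest for its YFP-positive sample, a hint from the data only. With the replicate block, 580 genes, 30 listed genes and 0 members passed, and Zfpm2 had an adjusted p of 0.0715. Gata1, Gata4, Gata5, Gata6 and the YFP-negative levels of Zfpm2 and Gata3 lay near the low end of the arrays, which limits what their differences can show.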
